A study of Homo sapiens with 8 samples.

Results

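The NRF2 antioxidant program was taken as 37 genes listed by symbol, from the sensor and its regulators to their best known targets. Each was found once among the 66206 gene rows of both expression tables, by the Ensembl identifier that GENCODE 29 gives for the symbol. RNA was sequenced from A549, an established human lung adenocarcinoma line, in 8 libraries that fall into 4 groups of 2. Transfection was with RNAiMAX. In the LNA experiment cells received 25 pmol of either a scramble LNA gapmer or a gapmer that targets the antisense RNA LY6K-AS, gapmers being antisense oligonucleotides through which RNase H cuts the matching RNA. In the siRNA experiment they received 40 pmol of either a scramble siRNA or one that targets YWHAG, the gene of the adaptor protein 14-3-3 gamma. The LY6K-AS libraries are titled as LNA1 and LNA3 and the YWHAG libraries as si1 and si2, so the members of a pair may carry separate oligonucleotides; they are called knockdown libraries 1 and 2 here. All 4 groups share the mutated KEAP1 that A549 carries, and no group with intact KEAP1 was analysed here. The labels do not say that the libraries of a group came from separate cultures, so the spread behind each p-value is that between these libraries and may be technical only. In a knockdown pair it may also hold the difference between separate oligonucleotides, which the test would then treat as replicates.

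NRF2, the product of NFE2L2, is a transcription factor that binds antioxidant response elements together with a small MAF protein such as MAFG. In unstressed cells KEAP1 holds NRF2 and presents it for ubiquitination and degradation, and oxidants or electrophiles that modify KEAP1 let NRF2 accumulate. Its targets make and use glutathione, run the thioredoxin cycle, supply NADPH, store iron, reduce carbonyls and quinones and export conjugates. KEAP1 is often mutated in lung adenocarcinoma, and in such cells the program runs without an outside stress.

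The core of the antioxidant response element, TGACNNNGC, was looked for on both strands in the 250 bases before each annotated start, since this is the sequence through which NRF2 is known to reach its targets. Of the 37 genes, 27 matched the RefSeq promoter table (build GRCh38.p14), and 10 of the 27 (37.04%) held the core in at least 1 promoter, against 3609 of 27305 genes in the whole table (13.2%). Counted by promoter, 11 of 38 held it (28.9%), against 10.9% of 35116 promoters of the same length. The 10 genes were PGD, GCLM, EPHX1, IDH1, UGT1A6, ME1, TXNRD1, GPX2, KEAP1 and CBR1. Windows of 49 bases are shown for a glutathione synthesis gene, a thioredoxin gene with a core in each of 2 promoters, a peroxidase, an NADPH enzyme and the sensor itself. They are written 5′ to 3′ on the gene's own strand with the core in capitals, and a core on the opposite strand reads from GC to GTCA.

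GCLM, chr1:93909436-93909484, minus strand: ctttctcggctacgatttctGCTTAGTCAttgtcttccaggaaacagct
TXNRD1 upstream promoter, chr12:104215660-104215708, plus strand: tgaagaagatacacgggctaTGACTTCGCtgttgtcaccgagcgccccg
TXNRD1 downstream promoter, chr12:104286910-104286958, plus strand: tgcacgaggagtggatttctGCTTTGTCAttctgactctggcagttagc
GPX2, chr14:64942839-64942887, minus strand: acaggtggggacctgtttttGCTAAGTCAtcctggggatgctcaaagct
ME1, chr6:83431160-83431208, minus strand: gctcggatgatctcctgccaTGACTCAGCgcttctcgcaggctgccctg
KEAP1, chr19:10502774-10502822, minus strand: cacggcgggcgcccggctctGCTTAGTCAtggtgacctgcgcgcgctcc

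GCLM and KEAP1 held the same core, TGACTAAGC, 34 and 31 bases before the start, and KEAP1 held a second core, TGACACGGC, 54 bases before it. The core of ME1 overlaps TGANTCA, the letters of an AP-1 site, and the cores of the other windows shown do not. A match is a description of the letters and not of NRF2 binding, and no match says only that these letters are not in this window. The median log2 difference from control was -0.18 over 9 measured members with the core and -0.11 over 17 without it after LY6K-AS knockdown, and -0.18 over 10 and -0.17 over 17 after YWHAG knockdown.

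Whole reads recovered from the deposited values came to between 21.2 and 28.9 M (M, 1e6 reads) per library over genes whose length could be checked. YWHAG had 163 and 158 RPKM (reads per kilobase of exon per 1e6 reads) in the siRNA controls and 13.5 and 4.91 RPKM in the knockdown libraries. For LNCOC1, which is taken as the LY6K-AS gene, 34 and 17 reads were counted in the controls against 3 and 8 after its knockdown. All 6 epithelial markers were above 0.5 RPKM, with summed levels of 1275 to 1523 RPKM in the LNA libraries and 853 to 1222 RPKM in the siRNA libraries. Of 5 lung markers only FOXA2 and ABCA3 passed 0.5 RPKM in any library, and the alveolar genes NKX2-1, SFTPB and SFTPC did not. No endothelial, 1 immune (CD14) and 2 fibroblast markers (COL1A1, LUM) of 5 each passed it. Within the LNA pair the controls lay closer together than the knockdown libraries, with an SD of the log2 difference over genes of 0.16 and 0.40, and in the siRNA libraries these were 0.19 and 0.43.

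The program stood high in the scramble-transfected control cells. Over the 36 members tested in the LNA table the control mean lay at a median of the 98.2nd percentile of the 14665 genes tested, and over all 37 in the siRNA table at the 98.1st of 13903. At or above the 90th percentile stood 30 of 36 and 31 of 37 members. Together the 37 genes took 3.50 and 3.46% of recovered reads in the LNA controls and 3.87 and 3.77% in the siRNA controls. Every share of reads given here is out of the reads recovered over all gene rows with a length. For some rows that length is of another identifier version, so the shares are approximate. In bulk RNA a lower level in every cell and fewer cells that express a gene cannot be told apart.

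**Figure D1:**
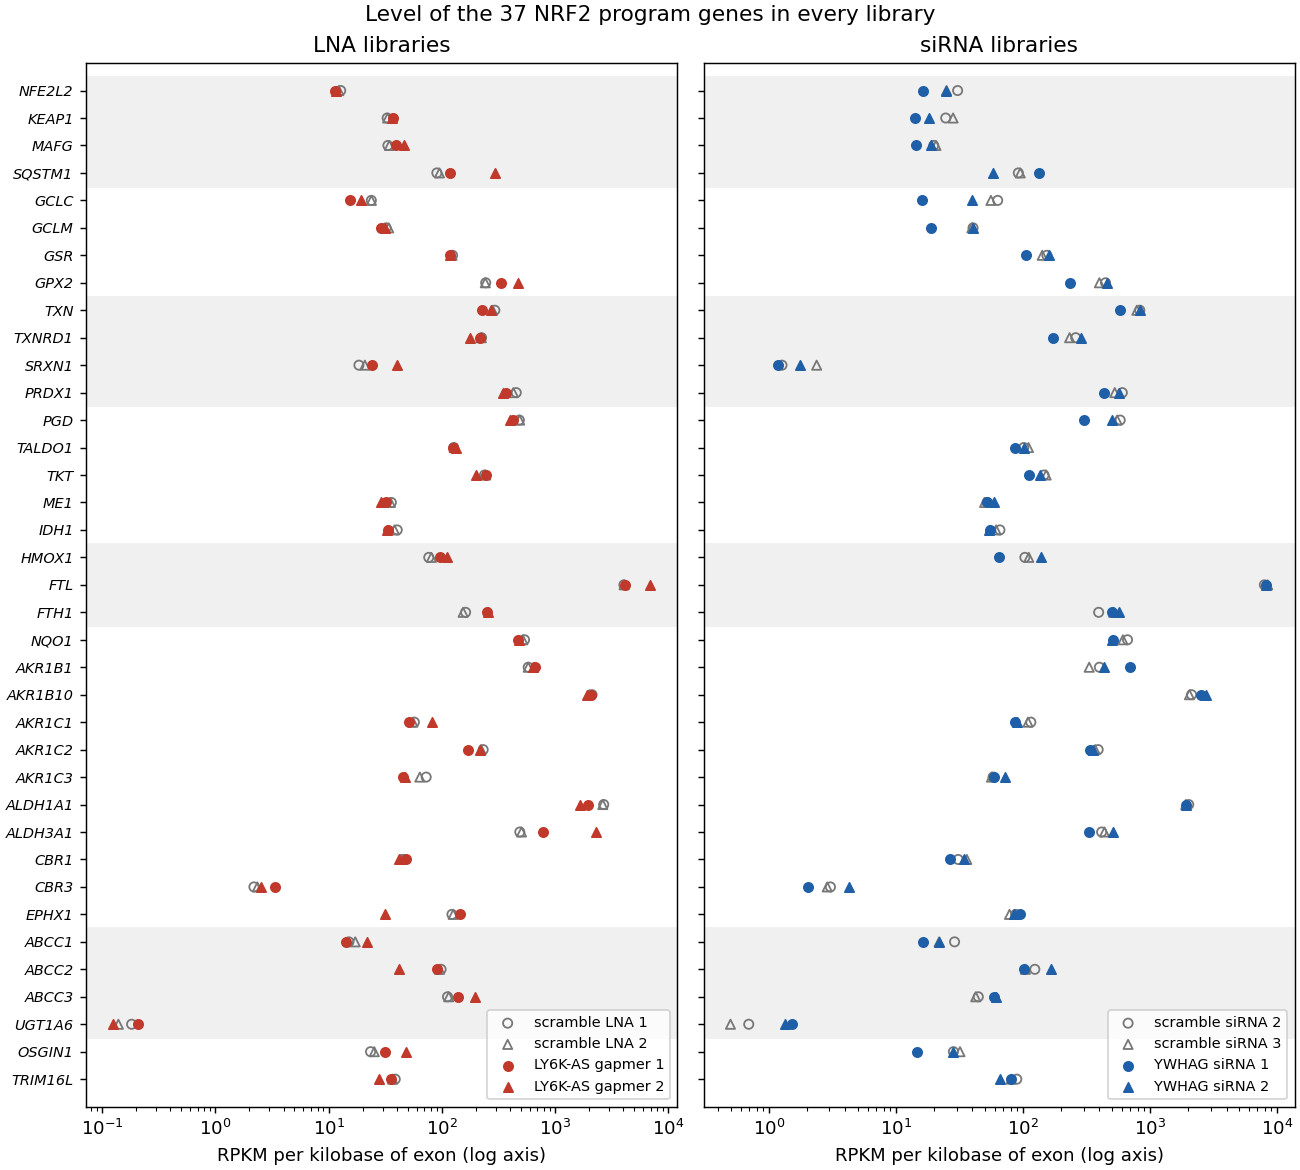
RPKM per kilobase of exon (log axis) of the 37 genes in each library, LNA libraries on the left and siRNA libraries on the right, with shaded bands for the roles in the order of the text. Grey open points are scramble controls and filled points knockdown libraries; FTL, ALDH1A1 and AKR1B10 stand highest in the controls of both tables, and in LY6K-AS library 2 ALDH3A1 passes the latter pair; UGT1A6, CBR3 and, in the siRNA table, SRXN1 stand lowest.

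FTL, the light chain of the iron store ferritin, had the highest control level of the program in both tables. It stood at 4074 and 4091 RPKM in the LNA controls and at 7941 and 8441 RPKM in the siRNA controls, rank 8 of all genes tested in each table. Next came ALDH1A1, a retinaldehyde dehydrogenase, with 2701 and 2651 RPKM in the LNA controls and 2016 and 1910.2 RPKM in the siRNA controls. AKR1B10, an aldo-keto reductase of aldehydes and retinals, had 2130.5 and 2013 RPKM and then 2123 and 2043 RPKM. In the LNA controls ALDH1A1 stood above AKR1B10 without overlap, and in the siRNA controls AKR1B10 stood above ALDH1A1, 2043 RPKM at its lowest against 2016 RPKM at the other's highest.

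Among the next genes, AKR1B1, the aldose reductase, had 581 RPKM in both LNA controls and 399.5 and 332 RPKM in the siRNA controls. NQO1, the quinone reductase often used as a readout of NRF2, had 539.7 and 521 RPKM and then 665 and 612 RPKM. ALDH3A1, an aldehyde dehydrogenase, had 490.1 and 507 RPKM in the LNA controls, close above PGD, the 6-phosphogluconate dehydrogenase that makes NADPH, with 485 and 488 RPKM. In the siRNA controls ALDH3A1 lay at 416 and 438 RPKM, inside the range of GPX2, a glutathione peroxidase of epithelia, with 446 and 399 RPKM. PGD (582 and 551 RPKM) and PRDX1, a peroxiredoxin that removes hydrogen peroxide (605 and 528 RPKM), overlapped there as well.

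TXN, the thioredoxin, had 295 and 282 RPKM in the LNA controls and 831 and 788 RPKM in the siRNA controls. FTH1, the ferritin heavy chain with ferroxidase activity, had 163 and 155 RPKM and then 394 and 517 RPKM. The tables were normalized separately, so these gaps between them were not tested. NFE2L2 itself had 12.8 and 12.3 RPKM in the LNA controls (percentile 75.3) and 30.6 and 25.0 RPKM in the siRNA controls (percentile 90.3). KEAP1 had 33.0 and 33.3 RPKM and then 24.6 and 28.2 RPKM.

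At the other end, UGT1A6, a glucuronosyltransferase, had 0.182 and 0.139 RPKM in the LNA controls and 0.694 and 0.499 RPKM in the siRNA controls. It did not reach the filter of 0.5 RPKM in 2 libraries in the LNA table, and in the siRNA table both knockdown libraries and 1 control carried it past the filter. The other 36 members were above the filter in all 8 libraries. CBR3, a carbonyl reductase, had 2.19 and 2.35 RPKM in the LNA controls and 3.05 and 2.88 RPKM in the siRNA controls. SRXN1, the sulfiredoxin that repairs overoxidized peroxiredoxins, differed most between the tables, with 18.6 and 20.9 RPKM in the LNA controls against 1.27 and 2.38 RPKM in the siRNA controls. In GENCODE 29, 85.0% of the exon bases of SRXN1 are shared with AL121758.1 on the same strand, and 64.4% of those of UGT1A6 with 10 genes of its locus, so the level of either depends on how shared reads were assigned. Reads per library came to 20 to 274 for UGT1A6, 82 to 170 for CBR3 and 111 to 3340 for SRXN1.

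After LY6K-AS knockdown no member passed the test, and neither did any other gene. Limma with an intensity trend called 0 of 14665 genes at an adjusted p of 0.05 (0%), with a smallest adjusted p of 0.103, and voom on the recovered reads also called 0. With the spread pooled over all 8 libraries 64 of 12864 genes passed (0.498%), no member among them. At an unadjusted p under 0.05 stood 6 members higher and 5 lower, or 11 of 36, beside 25.3% of all genes tested (13.5% higher, 11.7% lower). Both knockdown libraries lay above both controls for 13 members and below both for 16, 29 of 36 together, beside 31.4%, 30.5% and 62% of all genes. The members stood far higher in the controls than most genes. Shares of all genes, here and below, are not matched on level, so a gap from them is not read as particular to the members. The median log2 difference of the 36 members was -0.06, against 0.00 over all genes. Differences are on the scale of log2(RPKM + 1) throughout, which understates the change of low genes.

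The knockdown libraries differed in how far they stood from the controls. The larger difference was in knockdown library 2 for 25 of 36 members and in library 1 for 11, and library 1 had the larger one for 34.3% of all genes. The share of reads of the 37 genes was 3.39% in library 1, close to the controls, and 4.26% in library 2. ALDH3A1 had 281126 reads in library 2 against 65229 and 60704 in the controls, and FTL had 189483 against 121507 and 109726. In that library 20 of 36 members were below the control mean (48.3% of all genes), with a median log2 difference of -0.07. The higher share was therefore not a rise of most members. For 6 members, TALDO1, TKT, AKR1C1, CBR1, ABCC1 and EPHX1, the knockdown libraries lay on opposite sides of the control mean, as for 28.4% of all genes. Library 2 also had the lowest share of mitochondrial reads, 4.07% against 8.27% in library 1 and 8.32 and 6.35% in the controls, and its part in these values was not tested.

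**Figure D2:**
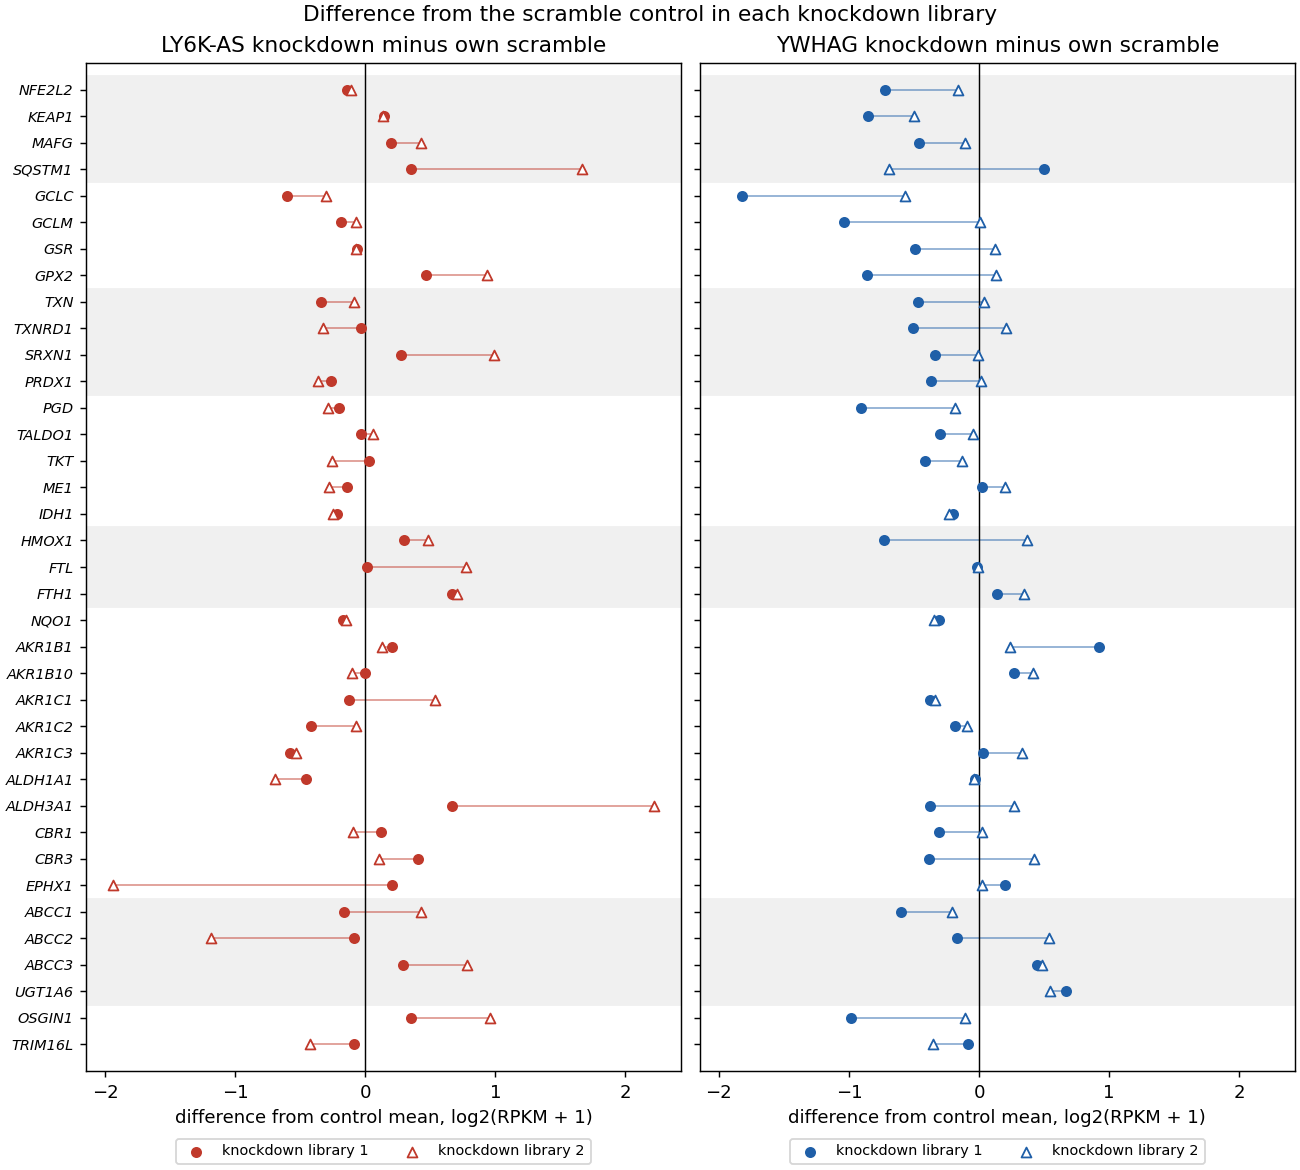
Difference of each knockdown library from the mean of its own scramble controls, in log2(RPKM + 1), for the 37 genes; circles are knockdown library 1, triangles library 2, and a line joins the pair. On the left ALDH3A1, SQSTM1 and EPHX1 have the longest lines, each with library 2 far out, and on the right GCLC is the farthest to the left in library 1; UGT1A6 is absent on the left because it was below the filter.

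The differences also went with base composition. Across all genes tested the log2 difference correlated with the GC content of the transcript (Spearman's rho 0.54 over 14665 genes, 0.42 for library 1 and 0.54 for library 2), and the difference between the 2 controls did so at 0.24. Genes are not independent replicates, and all points of a library share its depth, so this is a description. Among the 36 members rho was 0.61, with a median GC of 56.3% over the 17 higher members and 45.1% over the 19 lower ones. With the GC trend of each library removed, 30 of the 36 kept their sign, and 2 members in place of 6 were higher at an unadjusted p under 0.05. The share of all genes higher in that setting was not counted, so the drop is not read as particular to the members. After YWHAG knockdown rho was 0.03 over all genes and 0.01 over the 37 members.

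**Figure D3:**
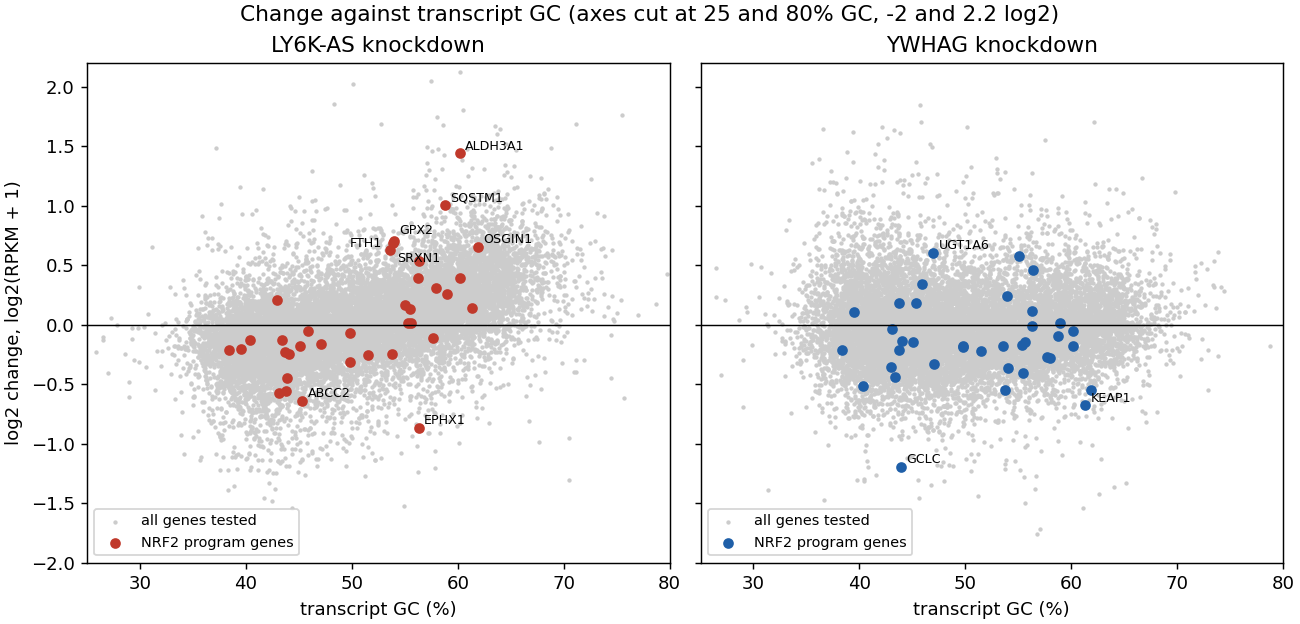
Log2 difference from control against transcript GC (percent) for all genes tested (grey) and the members (coloured), LY6K-AS knockdown on the left and YWHAG knockdown on the right; points beyond the axes are not shown. On the left the cloud climbs with GC (rho 0.54) and so do the members (rho 0.61), while on the right neither does (0.03 and 0.01).

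Among the regulators, NFE2L2 had 11.3 and 11.6 RPKM after LY6K-AS knockdown against 12.8 and 12.3 RPKM in the controls, a log2 difference of -0.12 ± 0.08 (SE; limma adjusted p = 0.401). KEAP1 had 36.8 and 36.6 RPKM against 33.0 and 33.3 RPKM (0.14 ± 0.08, adjusted p = 0.330), and -0.16 with the GC trend removed. Both knockdown libraries lay below the controls for NFE2L2 and above them for KEAP1, by small amounts. With the GC trend removed the log2 difference of NFE2L2 was -0.00085. MAFG, the small MAF partner of NRF2, had 39.1 and 46.0 RPKM against 33.5 and 34.4 RPKM (0.31 ± 0.11, adjusted p = 0.193, and 0.11 with the trend removed). SQSTM1, the autophagy receptor p62 that sequesters KEAP1 and is itself a target, had 119 and 297 RPKM against 90.6 and 95.5 RPKM. Its knockdown libraries stood at 1.28 and 3.19 times the control mean (log2 difference 1.01 ± 0.46, adjusted p = 0.254), so most of that value came from library 2.

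In glutathione metabolism the differences did not all go one way. GCLC, the catalytic subunit of the enzyme that makes the glutathione precursor, had 15.4 and 19.2 RPKM against 23.9 RPKM in both controls, a log2 difference of -0.45 ± 0.13 (adjusted p = 0.148). Its partner GCLM, the modifier subunit, had 28.9 and 31.4 RPKM against 32.2 and 34.0 RPKM (-0.13 ± 0.09, adjusted p = 0.421, and 0.02 with the GC trend removed), and GSR, the glutathione reductase, 119 and 118 RPKM against 125 and 123 RPKM. GPX2 lay above both controls in both libraries, with 337 and 468 RPKM against 245 and 243 RPKM (0.70 ± 0.19, adjusted p = 0.138).

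The thioredoxin cycle had 3 of 4 members below the controls in both libraries, as were 30.5% of all genes. PRDX1 had 368 and 345 RPKM against 456 and 430.1 RPKM, a log2 difference of -0.31 ± 0.11 (adjusted p = 0.185). TXN had 228 and 271 RPKM against 295 and 282 RPKM, and TXNRD1, the reductase that recharges thioredoxin, 219 and 179 RPKM against 225 and 224 RPKM. SRXN1 stood on the other side, with 24.1 and 40.1 RPKM against 18.6 and 20.9 RPKM (0.63 ± 0.26, adjusted p = 0.227). With the GC trend removed PRDX1 stayed at -0.31, while TXN went from -0.21 to -0.06 and TXNRD1 from -0.18 to -0.08. SRXN1 was then at 0.55.

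Of 5 NADPH genes, PGD, ME1 and IDH1 lay below both controls in both libraries (30.5% of all genes). PGD had 423 and 399.6 RPKM against 485 and 488 RPKM (-0.24 ± 0.11, adjusted p = 0.243). IDH1, the cytosolic isocitrate dehydrogenase, had 33.7 and 33.0 RPKM against 40.5 and 38.2 RPKM (-0.23 ± 0.09, adjusted p = 0.198). ME1, the malic enzyme, had a log2 difference of -0.21. TALDO1 and TKT, enzymes of the non-oxidative pentose phosphate pathway, had 0.01 and -0.11, with their libraries on opposite sides of the controls. With the GC trend removed the log2 differences were -0.05 (ME1), -0.11 (IDH1), -0.33 (PGD), -0.12 (TALDO1) and -0.31 (TKT).

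All 3 iron and heme members lay above both controls in both knockdown libraries, as did 31.4% of all genes. FTH1 (ENSG00000167996.15, hg38 chr11:61959718-61967660, minus strand) had 253 and 259 RPKM against 163 and 155 RPKM, the smallest p of the program in this comparison, with knockdown libraries at 1.59 and 1.63 times the control mean (log2 difference 0.69 ± 0.10, adjusted p = 0.103, and 0.59 with the GC trend removed). HMOX1, the heme oxygenase, had 97.3 and 111 RPKM against 76.8 and 81.1 RPKM (0.39 ± 0.11, adjusted p = 0.142, and 0.12 with the trend removed). FTL had 4127 and 6987 RPKM against 4074 and 4091 RPKM, so that library 1 stood at 1.01 and library 2 at 1.71 times the control mean. FTH1 shares 62.4% of its exon bases with BEST1 on the opposite strand, so its reads may be split with BEST1 where strand was not used in counting. The same limit holds for other members, among them CBR3 (42.2%), PRDX1 (24.9%), SQSTM1 (22.0%), CBR1 (18.9%) and NQO1 (17.7%). NFE2L2 shares 20.9%, mostly with AC019080.1 on the same strand. GENCODE 29 also lists 25 FTH1 and 16 FTL pseudogenes, and reads of either gene may be split with these whether or not strand was used. For TXN it lists 7 pseudogenes.

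The widest differences of the program fell among the carbonyl and quinone enzymes, in both directions. ALDH3A1 (ENSG00000108602.17, hg38 chr17:19737984-19748943, minus strand) had 793 and 2323 RPKM against 490.1 and 507 RPKM, or 1.59 and 4.66 times the control mean (log2 difference 1.44 ± 0.54, adjusted p = 0.201). ALDH1A1, the other aldehyde dehydrogenase, went the opposite way, with 1952 and 1650.5 RPKM against 2701 and 2651 RPKM (-0.58 ± 0.16, adjusted p = 0.141). ALDH1A1 thus stood above ALDH3A1 in the controls and in library 1, and below it in library 2. EPHX1, the microsomal epoxide hydrolase, had 144 RPKM in library 1 and 31.9 RPKM in library 2 against 123 and 126 RPKM, so the libraries stood at 1.15 and 0.255 times the control mean and the log2 difference of -0.87 ± 0.73 (adjusted p = 0.492) rested on library 2 alone.

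The aldo-keto reductases split as well. AKR1C3, which reduces steroids and prostaglandins, had 45.5 and 46.9 RPKM against 72.9 and 64.1 RPKM, a log2 difference of -0.56 ± 0.10 (adjusted p = 0.105, and -0.44 with the GC trend removed). Its near copies gave 51.7 and 82.6 RPKM against 57.3 and 55.6 RPKM for AKR1C1 and 170.2 and 216 RPKM against 233 and 223 RPKM for AKR1C2. AKR1C1 to AKR1C3 are close in sequence, so reads could be split between them and the levels of each are uncertain. AKR1B10 (2071 and 1928 RPKM) overlapped its controls, and AKR1B1 (672 and 635 RPKM against 581 RPKM) lay above them with a log2 difference of 0.17. NQO1 lay below its controls at 471 and 478 RPKM (-0.16 ± 0.11, adjusted p = 0.388), and the carbonyl reductases CBR1 and CBR3 had log2 differences of 0.01 and 0.26.

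Among the exporters ABCC3, a conjugate pump, had 139 and 197 RPKM against 113 and 115 RPKM (0.53 ± 0.19, adjusted p = 0.190). ABCC2, a related pump of the apical membrane, had 91.5 and 42.1 RPKM against 98.7 and 95.7 RPKM, and its libraries stood at 0.941 and 0.433 times the control mean. ABCC1 had 14.3 and 22.0 RPKM against 15.1 and 17.2 RPKM, with the libraries on opposite sides. UGT1A6 had 0.206 and 0.125 RPKM. OSGIN1, an oxidative stress-induced growth inhibitor, had 31.4 and 48.4 RPKM against 23.5 and 25.4 RPKM (0.65 ± 0.23, adjusted p = 0.182, and 0.33 with the GC trend removed), and TRIM16L, a tripartite motif gene, had a log2 difference of -0.25.

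**Figure D4:**
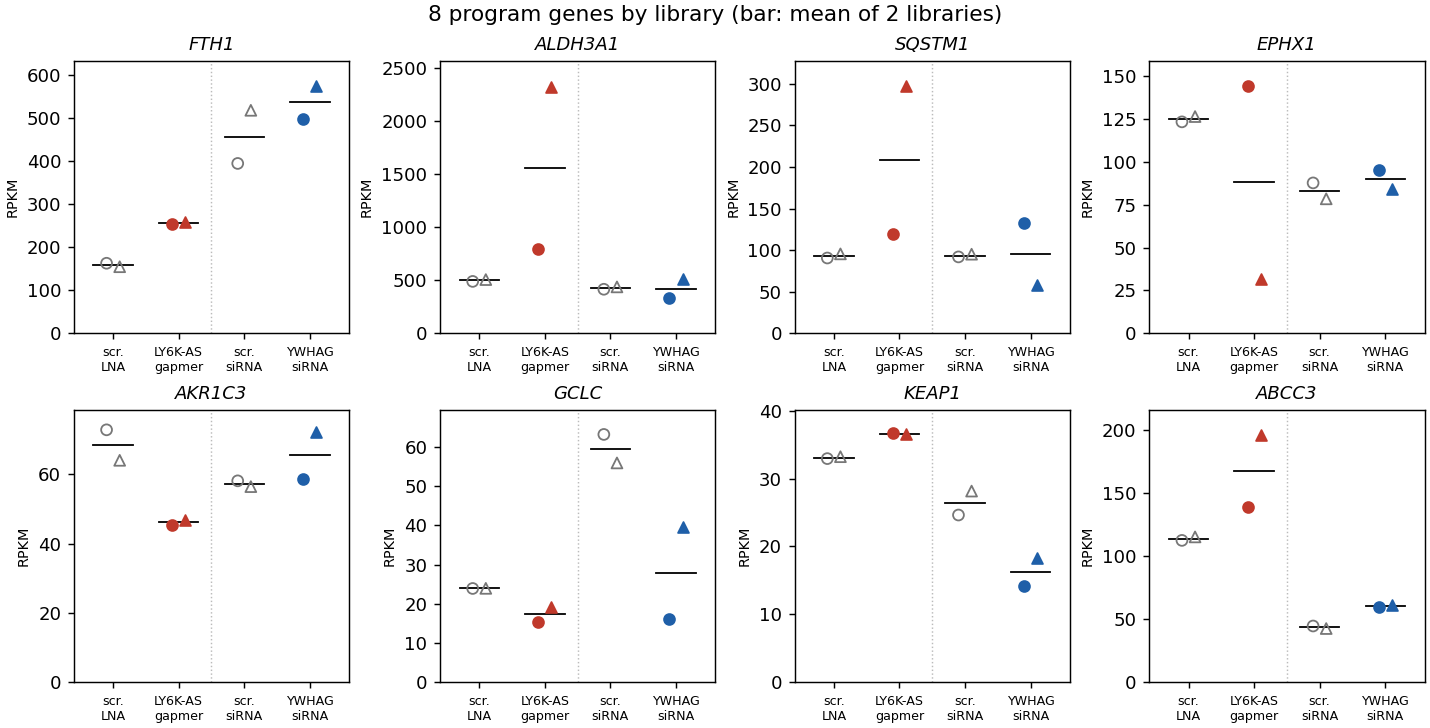
RPKM of 8 members in each library, chosen after their values were seen for the widest or the closest agreement of the libraries; open points are scramble controls, filled points knockdowns, and bars the mean of 2 libraries. FTH1 and AKR1C3 have close LY6K-AS libraries clear of their controls, ALDH3A1, SQSTM1 and EPHX1 have them far apart, and KEAP1 and GCLC stand low in the YWHAG libraries.

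After YWHAG knockdown, again, no member passed the test. Limma called 0 of 13903 genes at an adjusted p of 0.05 (0%), YWHAG included, with a smallest adjusted p of 0.130, and voom on the recovered reads called 0. The pooled spread gave 214 of 12864 genes (1.66%), again without a member. At an unadjusted p under 0.05 stood 3 members higher (UGT1A6, ABCC3, AKR1B10) and 3 lower (KEAP1, GCLC, AKR1C1), or 6 of 37, beside 16.4% of all genes tested (7.51% higher, 8.9% lower). UGT1A6 passed the filter on low values through its knockdown libraries, and with a mean of at least 2 RPKM required 2 members stood higher and 3 lower. The share of all genes under that stricter filter was not counted. Both knockdown libraries lay above both controls for 5 members and below both for 13, 18 of 37 together, beside 20.4%, 30.8% and 51.2% of all genes. Of the 37 members 27 had a negative log2 difference (57.6% of all genes), with a median of -0.17 against -0.05 over all genes.

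The negative median was that of knockdown library 1. It was -0.34 in knockdown library 1, in which 28 of 37 members were below the control mean (54.8% of all genes), and 0.01 in library 2, in which 18 were (57.5% of all genes). The members' share of reads was 3.56% in library 1 and 3.93% in library 2. For 12 members the libraries lay on opposite sides of the control mean, beside 34.6% of all genes: GCLM, GSR, GPX2, TXN, TXNRD1, PRDX1, HMOX1, ALDH3A1, CBR1, CBR3, ABCC2 and SQSTM1. Library 1 was the knockdown library with the higher remaining YWHAG, 13.5 RPKM against 4.91 RPKM, and with the lower mitochondrial share of reads, 13.7% against 17.9% (15.0 and 17.9% in the controls).

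The sensor and its factor were both lower. KEAP1 (ENSG00000079999.13, hg38 chr19:10486120-10503741, minus strand) had 14.2 and 18.4 RPKM against 24.6 and 28.2 RPKM in the siRNA controls, or 0.536 and 0.695 times the control mean, a log2 difference of -0.68 ± 0.18 (adjusted p = 0.243). NFE2L2 had 16.4 and 24.6 RPKM against 30.6 and 25.0 RPKM (-0.44 ± 0.23, adjusted p = 0.404), with library 2 just under the lower control. MAFG had 14.5 and 18.7 RPKM against 19.8 and 20.7 RPKM (-0.28 ± 0.17, adjusted p = 0.448). SQSTM1 gave 133 RPKM in library 1 and 57.6 RPKM in library 2 against 91.9 and 95.2 RPKM, in the opposite order to most members.

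Glutathione synthesis held the widest difference of the program in this comparison. GCLC (ENSG00000001084.10, hg38 chr6:53497341-53616970 in GENCODE 29, minus strand) had 16.1 and 39.7 RPKM against 63.2 and 56.0 RPKM, or 0.271 and 0.666 times the control mean (log2 difference -1.20 ± 0.42, adjusted p = 0.283), and was below both controls in both libraries. GCLM had 19.0 RPKM in library 1 and 40.3 RPKM in library 2 against 40.5 and 39.6 RPKM, so that only library 1 differed, at 0.474 times the control mean. GPX2 had the same form, with 233 and 463 RPKM against 446 and 399 RPKM, and GSR had 105 and 161 RPKM against 154 and 142 RPKM.

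All 4 thioredoxin genes lay below the control mean in library 1, as did 54.8% of all genes tested. In library 2 only SRXN1 did, by a small amount, beside 57.5% of all genes. TXN had 585 and 831 RPKM against 831 and 788 RPKM, TXNRD1 173 and 285 RPKM against 260.1 and 233 RPKM, and PRDX1 437 and 572 RPKM against 605 and 528 RPKM. Their log2 differences were -0.21, -0.15 and -0.18, with adjusted p of 0.628, 0.809 and 0.660. SRXN1, at 1.19 and 1.75 RPKM, overlapped its controls.

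In NADPH supply PGD had 301 and 499 RPKM against 582 and 551 RPKM (-0.54 ± 0.26, adjusted p = 0.369), and both libraries were below both controls. TKT (112 and 137 RPKM against 147 and 152 RPKM) and IDH1 (55.3 and 54.2 RPKM against 65.9 and 61.5 RPKM) were also below both controls in both libraries, with log2 differences of -0.27 and -0.21. ME1 stood at 51.9 and 58.7 RPKM against 52.2 and 49.8 RPKM, and TALDO1 at 86.0 and 102 RPKM against 101 and 111 RPKM.

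For iron and heme no member had both knockdown libraries on the same side of both controls. FTL had 8119.8 and 8152 RPKM against 7941 and 8441 RPKM. FTH1 had 498 and 575 RPKM against 394 and 517 RPKM, a log2 difference of 0.24 ± 0.19 (adjusted p = 0.547). HMOX1 had 64.3 and 139 RPKM against 103 and 111 RPKM, with the knockdown libraries on either side of both controls.

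Carbonyl and quinone enzymes again differed among themselves. AKR1B10 had 2514 and 2771 RPKM against 2123 and 2043 RPKM (0.34 ± 0.13, adjusted p = 0.297) and AKR1B1 had 690.1 and 431 RPKM against 399.5 and 332 RPKM (0.58 ± 0.26, adjusted p = 0.346), both above both controls. AKR1C1 had 86.3 and 88.9 RPKM against 115 and 109.6 RPKM (-0.36 ± 0.12, adjusted p = 0.285). AKR1C2, at 335 and 357 RPKM against 391 and 369.9 RPKM, was below both controls, and AKR1C3, at 58.7 and 72.3 RPKM against 58.2 and 56.5 RPKM, was above both.

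NQO1 was lower by nearly the same amount in both libraries, at 515 and 503 RPKM against 665 and 612 RPKM, or 0.806 and 0.788 times the control mean (-0.33 ± 0.13, adjusted p = 0.305). ALDH1A1 had 1924 and 1907 RPKM against 2016 and 1910.2 RPKM, a log2 difference of -0.03 ± 0.12, and ALDH3A1 had 329 and 513 RPKM against 416 and 438 RPKM. EPHX1, at 95.4 and 84.3 RPKM against 87.6 and 78.4 RPKM, and CBR1, at 26.8 and 34.1 RPKM against 30.9 and 36.1 RPKM, overlapped their controls.

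In export and conjugation ABCC3 had 59.6 and 61.0 RPKM against 44.5 and 42.5 RPKM, or 1.37 and 1.40 times the control mean (0.46 ± 0.12, adjusted p = 0.248). UGT1A6 had 1.53 and 1.33 RPKM against 0.694 and 0.499 RPKM (0.61 ± 0.13, adjusted p = 0.206), and its being higher there is partly set by the filter. ABCC1 had 16.2 and 21.7 RPKM against 28.9 and 21.9 RPKM, and ABCC2 had 101 and 166 RPKM against 124 and 105 RPKM. OSGIN1 had 14.7 and 27.9 RPKM against 28.4 and 31.9 RPKM (-0.54 ± 0.31, adjusted p = 0.432), and TRIM16L had a log2 difference of -0.22.

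Further genes of the pathway were read from 4 lists. Of the sensor and control machinery (the CUL3 ligase, small MAF and BACH factors, coactivators), 22 of 23 were measured, and after LY6K-AS knockdown 2 stood higher and 3 lower at an unadjusted p under 0.05, with a median log2 difference of 0.05; over all genes tested 13.5% stood higher and 11.7% lower, and the counts of the other lists are to be read beside the same shares. RBX1, the RING subunit of the ligase that KEAP1 serves, had 8.14 and 8.81 RPKM against 13.1 RPKM in both controls (-0.57 ± 0.09, adjusted p = 0.103). Of 34 further NRF2 targets 30 were measured, 3 higher and 4 lower, led in p by the exporter ABCC4 (9.69 and 9.06 RPKM against 12.5 and 12.8 RPKM). Among 28 other antioxidant genes 24 were measured, 3 higher and 3 lower. SESN2, a stress-induced sestrin, had 8.65 and 12.1 RPKM against 4.18 and 4.45 RPKM (1.08 ± 0.17, adjusted p = 0.103). The iron and heme list had 2 higher and 3 lower of 13 measured out of 14, and TFRC, the transferrin receptor, had 29.3 and 27.2 RPKM against 35.5 and 35.8 RPKM.

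After YWHAG knockdown the same lists had 1 higher and 0 lower of 22, 3 and 2 of 30, 2 and 0 of 25, and 3 and 0 of 13 at an unadjusted p under 0.05, beside 7.51% higher and 8.9% lower over all genes, with medians of -0.15, -0.09, 0.07 and 0.10. None passed the adjusted threshold. SLC7A11, the cystine importer that feeds glutathione synthesis, had 27.3 and 31.3 RPKM against 16.3 and 15.6 RPKM (0.84 ± 0.14, adjusted p = 0.179), while GCLC was lower in the same libraries. ABCG2, another exporter, had 14.3 and 16.0 RPKM against 25.6 and 22.3 RPKM (-0.62 ± 0.14, adjusted p = 0.220). In iron handling TFRC had 70.7 and 78.8 RPKM against 53.7 and 48.2 RPKM, the zinc and iron importer SLC39A14 34.2 and 30.5 RPKM against 21.3 and 19.3 RPKM, and the exporter SLC40A1 9.26 and 8.74 RPKM against 5.98 and 5.94 RPKM, with log2 differences of 0.54, 0.64 and 0.52.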

How the data were processed

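Gene expression was measured by RNA-seq in 8 A549 libraries. The authors deposited RPKM in 2 tables, one for the LNA and one for the siRNA libraries. Per the submitters' processing notes STAR, featureCounts, Subread, Picard and hg38 were used, with no version or role named; the sources used here do not say whether reads were counted by strand. The table numbers the siRNA controls 2 and 3 where the labels have 1 and 2, so a column was matched to its group and not to a sample.

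Values times length gave whole reads (within 0.05 reads) for 100% of values with the genomic span in the LNA table (8.32 to 14.4% with exon length) and with exon length in the siRNA table, on 52238 genes whose identifier version matched GENCODE 29. LNA values were rescaled to exon length. Whether LNA reads were counted over exons or the span, introns included, is not stated. For 8 members of another version (GCLC, FTL, AKR1C1, AKR1C2, AKR1C3, GSR, ABCC2, TRIM16L) lengths were recovered as those giving whole reads in all 4 libraries of each table; this found the right span for 1887 of 1891 known genes given one. The spans recovered for AKR1C1 and AKR1C2, 144270 and 212663 bases, far exceed those of GENCODE 29 and came from a wider search. The check on known genes began from lengths near the right one, so it does not cover AKR1C1 and AKR1C2. Their LNA levels scale with the span used, but not the ratios of knockdown to control.

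Each knockdown was compared with its own control in limma 3.58.1 (R 4.3.3, intensity trend) on log2(RPKM + 1), genes of at least 0.5 RPKM in 2 of 4 libraries, two-sided, Benjamini-Hochberg over all genes tested, with 2 residual degrees of freedom. The procedure was tested on simulated data. These had the same spread in all libraries and no GC trend, unlike the real libraries, so that test does not bear on the lack of calls here. Members and lists were chosen with earlier results of these data known. Values by library are given for the 10 highest control means, the 6 smallest p per direction with a mean of at least 2 RPKM, NFE2L2, KEAP1 and paralogs, and further members and list genes were added after their values were seen. Pseudocount, filter, scaling, GC, spread, voom, deposited values and single libraries were varied.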

Additional observations from a re-analysis of the deposited data

Results flagged for a closer look

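For 4 of the 36 members tested in both comparisons, the knockdowns went opposite ways. Both LY6K-AS libraries lay beyond both of their controls in one direction, and both YWHAG libraries beyond both of theirs in the other. Of all genes tested in both, 1853 of 12864 (14.4%) had this pattern. The share among the members was no higher, so the pattern is not read as particular to them. KEAP1 had a log2 difference of 0.14 after LY6K-AS knockdown and -0.68 after YWHAG knockdown. For AKR1C3 the values were -0.56 and 0.18. OSGIN1 had 0.65 and -0.54, and MAFG 0.31 and -0.28. None of these values passed an adjusted p of 0.05 in limma, and the difference between the experiments was not tested, since each table was normalized on its own and the oligonucleotide type differs with the target. With the GC trend removed, the LY6K-AS values were -0.16 for KEAP1, -0.44 for AKR1C3, 0.33 for OSGIN1 and 0.11 for MAFG, so KEAP1 then lies on the same side in both.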

How the results depend on the processing

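Under every alternative the count of genes past an adjusted p of 0.05 stayed at 0 in both comparisons, except with the spread pooled over 8 libraries (64 for LY6K-AS and 214 for YWHAG, no member among them) and with 1 LY6K-AS knockdown library left out (0 to 7726 over the 4 omissions). The counts above 0 in that range came with knockdown library 1 or library 2 left out, and members were among the many genes that passed. The lone library is then assumed to vary like the controls, which lay closer together. Passing in these fits is therefore not read as particular to the members. The median log2 difference of the members was -0.07 with library 1 left out and -0.03 with library 2 left out. Members higher at an unadjusted p under 0.05 after LY6K-AS knockdown, 6, were 2 with the GC trend removed, 3 with values as deposited, 3 with the pooled spread and 0 to 13 with 1 library left out. Members lower, 5, were 3 without a filter, 3 with the replicate block, 2 with the pooled spread and 0 to 12 with 1 library left out. The same counts after YWHAG knockdown, 3 and 3, ranged over 0 to 6 and 0 to 16 with 1 library left out. Its median of -0.17 ranged from -0.34 to 0.01, and that of LY6K-AS from -0.08 to -0.03. The replicate block for the LNA libraries gave 8 higher and 3 lower and no call; same-numbered LNA libraries share only a number (correlation of deviations 0.08). For the YWHAG comparison no paired analysis was possible because the siRNA control columns do not carry the label numbers. Signs turned with the GC trend removed for KEAP1 (-0.16), GCLM (0.021), TALDO1 (-0.12), AKR1B10 (0.027), CBR1 (-0.13) and ABCC1 (-0.0016) after LY6K-AS knockdown and CBR3 (-0.011; -0.0055 by voom) after YWHAG knockdown, and with median-ratio scaling, which moved the median of all genes by 0.05, for FTL (0.054), ALDH1A1 (0.028) and ALDH3A1 (0.0079) after YWHAG knockdown. Leaving out 1 library turned others, with ranges after LY6K-AS knockdown of -0.031 to 0.056 (TALDO1), -0.25 to 0.027 (TKT), -0.12 to 0.54 (AKR1C1), -0.10 to 0.12 (CBR1), -0.16 to 0.43 (ABCC1) and -1.94 to 0.21 (EPHX1). After YWHAG knockdown they were -1.04 to 0.0091 (GCLM), -0.50 to 0.21 (TXNRD1), -0.47 to 0.040 (TXN), -0.46 to 0.11 (SRXN1), -0.37 to 0.017 (PRDX1), -0.73 to 0.37 (HMOX1), -0.053 to 0.035 (FTL), -0.074 to 0.0039 (ALDH1A1), -0.37 to 0.27 (ALDH3A1), -0.31 to 0.027 (CBR1), -0.39 to 0.42 (CBR3), -0.49 to 0.12 (GSR), -0.86 to 0.13 (GPX2), -0.17 to 0.54 (ABCC2) and -0.69 to 0.50 (SQSTM1). The cause was not tested.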
